A study of Arabidopsis thaliana with 11 samples.

Results

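The genes described here are 46 probe sets, of 19371 plant probe sets on the array, that were higher on all 4 arrays of CBF4-overexpressing Arabidopsis shoots than on any of the 7 other arrays of the study. They were chosen from the values themselves. After quantile normalization over the 11 arrays and log2 transformation, the lowest CBF4 array had to lie above the highest of the AtNF-YB1 and wild type arrays, the mean difference had to reach 0.7 log2 and the CBF4 mean 4 log2. In all 58 probe sets met these thresholds, 0.299% of the plant probe sets. Of them 12 were left out by name, because they belong to 11 genes that form other groups (COR15A, COR15B, KIN1, KIN2, COR47, SWEET13, AT3G55760, AT1G51090, AT1G68500, AT3G17130 and AT3G28220). The difference between CBF4 and the other arrays is therefore a description of how the members were picked, and no test of it is given.

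The study overexpressed 2 transcription factors in Arabidopsis thaliana from 35S, a promoter active in nearly all tissues. A transgene under it can be on in cells where the native gene may be off, which the arrays did not measure. The arrays covered CBF4 lines 10 and 19 with 2 arrays each, AtNF-YB1 lines 3 and 6 with 2 arrays each, and Col-0 wild type with 3. Each array read a pool of about 24 shoots of 14-day seedlings, raised on plates in constant light (24 h) and cut from their roots. The series text calls the AtNF-YB1 lines homozygous and gives the second CBF4 line 2 numbers, of which the sample titles carry 19. No cold or drought treatment is named for any group, and no construct is named for wild type.

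CBF4 belongs to the CBF/DREB1 group of AP2-domain transcription factors. Its relatives are switched on by cold, bind the CRT/DRE element in promoters and raise a set of genes, the CBF regulon, that includes protective hydrophilic proteins such as the COR and KIN proteins, dehydrins, and enzymes of compatible solute synthesis. CBF4 itself is known as the member of the group that responds to drought and abscisic acid. AtNF-YB1 is a subunit of the NF-Y complex, which binds CCAAT boxes. Plants that overexpress CBF factors are known for freezing and drought tolerance, and often for slow growth.

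No probe set was annotated as CBF4 or AtNF-YB1, so the constructs were checked through probe sets for vector 3′ ends. Deposited NOS 3′ end intensity was 154 to 420 units in CBF4 shoots, 285 to 705 in AtNF-YB1 shoots, and 0.498 and −0.437 in the first 2 wild type pools. For the E9 3′ end it was 504 to 591 units in CBF4 shoots, 2.2 to 112 in AtNF-YB1 shoots, and 137 and 88.3 in those wild type pools. The remaining vector probe set, for a CaMV 35S 3′ end, gave −3.19 to 5.11 units over the 11 arrays and did not separate the groups. NOS and E9 signal was also present on the array labelled wild type replicate 3, at 52.3 units for NOS and 1164 for E9, which goes against its label. Without that array the thresholds gave 50 probe sets, of which 45 were members. The shoot marker RCA (Rubisco activase) averaged 11.01 ± 0.04 log2 on CBF4, 10.95 ± 0.08 on AtNF-YB1 and 10.97 ± 0.13 on wild type arrays (SD, n = 4, 4 and 3). Of 12 root marker genes 8 were measured under a name. Their summed intensity was 237 to 548.8 units in CBF4, 444.8 to 570.6 in AtNF-YB1 and 295 to 672.8 in wild type shoots, with a median CBF4 minus wild type difference of −1.08 log2 and 0 of 8 called in either direction. All 8 were lower in CBF4 than in wild type shoots, 4 of them with an unadjusted p below 0.05, where 6.14% of plant probe sets had one. The root peroxidase genes AT5G17820 and AT3G01190 were at the floor on all CBF4 arrays, AT5G17820 also on all AtNF-YB1 arrays. PYK10, a root beta-glucosidase, was present at 8 ± 0.48 log2 in CBF4, 8.44 ± 0.24 in AtNF-YB1 and 8.26 ± 0.61 in wild type shoots. The part of root tissue in the results below was not tested, and in bulk shoots a change in the number of cells of a type cannot be told apart from a change in RNA per cell.

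**Figure D1:**
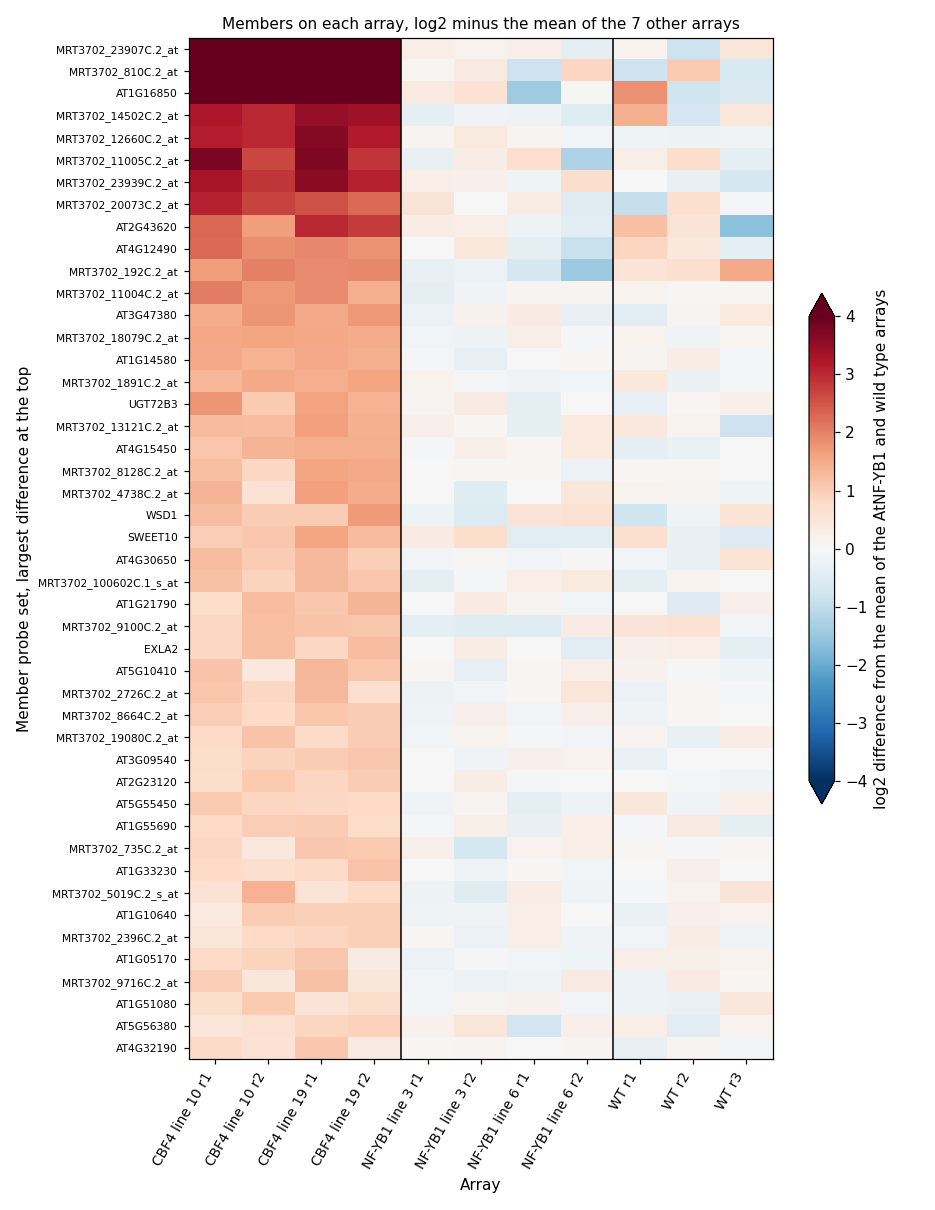
Each row is a member probe set and each column an array (CBF4, AtNF-YB1, wild type). Colour gives the log2 value minus the mean of the 7 AtNF-YB1 and wild type arrays and saturates at 4. The CBF4 columns are red in all 46 rows because the members were chosen that way. The differences run from 0.7, the lower limit set by the choice, to 6.1 log2.

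The members differed widely in size. The difference between the CBF4 mean and the mean of the other 7 arrays ran from 0.7 to 6.1 log2, with a median of 1.18, or from 1.62-fold to 68.7-fold with a median of 2.26-fold. The highest ratios are to values near the floor and are poorly fixed in size. It was 3 log2 or more for 7 members, 1 or more for 29 and under 1 for 17. The gap between the lowest CBF4 array and the highest other array was 1 log2 or more for 12 members and under 0.25 for 14. The SD over the 4 CBF4 arrays ranged from 0.04 to 0.6 log2, with a median of 0.22. The mean over the other 7 arrays ran from 1.76 to 9.31 log2, with a median of 5.06, and the requirement of a CBF4 mean of at least 4 bears on this range. A floor value (0.93 log2) occurred on those arrays for 2 members.

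A gene name was available for 23 of the 46 members, 50% against 59.9% of all plant probe sets. All 23 matched a RefSeq locus, with 9, 2, 2, 5 and 5 of them on chromosomes 1 to 5. The members without a name are cited by probe set ID, and no gene is assigned to them. They include 6 of the 7 members with a difference of 3 log2 or more, and their median difference was 1.39 log2, against 1.03 for the annotated members.

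The member with the largest difference was MRT3702_23907C.2_at, without a gene name. It gave 8.14 and 7.98 log2 on the arrays of CBF4 line 10 and 8.59 and 8.55 on those of line 19, against 1.81 to 2.49 in AtNF-YB1 shoots and 2.34, 1.37 and 2.68 on the wild type arrays. Deposited intensities were 272 to 362 units in CBF4, 2.72 to 6.3 in AtNF-YB1 and 2.13 to 7 in wild type shoots. The signal was close to the floor in every shoot without the CBF4 construct and in the upper part of the range with it, with a gap of 5.3 log2. The ratio of the means was 68.7-fold, but its divisor lies near the floor, so its size is poorly fixed. Numbers of probe sets on this array mostly follow gene order (given below). That of MRT3702_23907C.2_at lies between SWEET13 (MRT3702_23788C.2_at) and AT5G55440 (MRT3702_24252C.2_at). Whether MRT3702_23907C.2_at reads the CBF4 transcript itself, native or from the construct, was not tested. MRT3702_810C.2_at, also without a name, gave 7.19, 6.66, 7.78 and 7.62 log2 on the CBF4 arrays, against 0.93 to 2.61 on the AtNF-YB1 and 0.93 to 2.8 on the wild type arrays. Since 2 of its other arrays lay at the floor, its 46.7-fold difference is relative to floored values.

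Among the annotated members AT1G16850 stood first. It gave 6.78 and 6.92 log2 on CBF4 line 10 and 7.23 and 6.95 on line 19, against 3.03, 3.25, 1.26 and 2.73 in AtNF-YB1 shoots and 4.5, 1.86 and 2.1 on the wild type arrays, a 19.6-fold difference. The CBF4 arrays spread by 0.19 log2 (SD, n = 4), while the wild type arrays spread by 1.46 (SD, n = 3), with replicate 1 well above the other two. Its level in shoots without the construct is therefore poorly fixed, although its gap to the CBF4 arrays was 2.29 log2.

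Of the annotated members, 3 belong to families named for cold, salt or dehydration, with smaller differences than AT1G16850. AT4G15450, a member of the senescence/dehydration-associated family, gave 6.97 and 7.21 log2 on line 10 and 7.3 and 7.3 on line 19, against 5.81, 6.05, 5.94 and 6.26 in AtNF-YB1 shoots and 5.48, 5.59 and 5.88 on wild type, a 2.52-fold difference. The CBF4 arrays clustered at 7.19 ± 0.16 (SD, n = 4) and the wild type arrays at 5.65 ± 0.21 (SD, n = 3). AT4G30650, a small hydrophobic protein of the low temperature and salt responsive family, gave 9.28, 9.06, 9.35 and 9.04 on the CBF4 arrays, against 7.93 to 8.11 in AtNF-YB1 shoots and 7.93, 7.74 and 8.61 on wild type. Wild type replicate 3 sat above the other wild type arrays and set its gap of 0.43. AT2G23120, a late embryogenesis abundant (LEA) protein, one of the hydrophilic proteins that accumulate in drying cells, gave 9.37, 9.71, 9.52 and 9.69 on the CBF4 arrays, against 8.59 to 8.97 on the AtNF-YB1 and 8.54 to 8.67 on the wild type arrays. It was abundant in every shoot, so its 1.87-fold difference sat on a high base.

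Lipid and cuticle genes made up another set of members. AT4G12490 and AT5G55450 encode small secreted proteins of the lipid transfer family. AT4G12490 gave 8.6, 8.17, 8.23 and 8.12 log2 on the CBF4 arrays, against 6.33, 6.73, 5.93 and 5.43 on AtNF-YB1 and 7.18, 6.75 and 5.92 on wild type arrays, a 3.89-fold difference with the uneven values all on the low side. AT5G55450 gave 7.36, 7.16, 7.14 and 7.12 on the CBF4 arrays, against 5.94 to 6.42 on AtNF-YB1 and 6.17 to 6.75 on wild type arrays. Its CBF4 arrays were among the tightest of the members, at 7.19 ± 0.11 (SD, n = 4). WSD1, the wax ester synthase of the stem cuticle, gave 4.79, 4.59, 4.59 and 5.27 on the CBF4 arrays, against 3.01 to 4.17 on AtNF-YB1 and 2.76, 3.39 and 4.12 on wild type arrays. It was among the dimmer members, its wild type arrays spread by 0.68 log2 (SD, n = 3), and its difference was 2.38-fold. AT1G55690, a Sec14-type phosphatidylinositol transfer protein, and AT1G21790, a membrane protein with a TLC lipid-sensing domain, were 1.85-fold and 2.15-fold higher, with gaps of 0.38 and 0.42 log2.

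Members grouped by family name alone as cell wall and polysaccharide genes included AT3G47380, of the family of inhibitors of invertase and pectin methylesterase. It gave 5.76, 6.06, 5.82 and 6.03 log2 on the CBF4 arrays, against 4.07, 4.47, 4.63 and 3.97 on the AtNF-YB1 and 3.86, 4.39 and 4.67 on the wild type arrays, a 3.08-fold difference with a gap of 1.09 log2. AT2G43620, a chitinase family protein, gave 7.5 and 6.86 on line 10 and 8.21 and 7.98 on line 19, against 4.78 to 5.5 on AtNF-YB1 shoots and 6.4, 5.69 and 3.55 in wild type shoots. Both sides were uneven, with an SD of 0.6 over the CBF4 arrays and 1.48 over the wild type arrays, so the 5.42-fold difference left a gap of only 0.46. EXLA2, an expansin-like protein, gave 5.24, 5.61, 5.24 and 5.64 on the CBF4 arrays, against 3.98 to 4.71 on the AtNF-YB1 and 4.03 to 4.68 on the wild type arrays. The pectin lyase fold proteins AT3G09540 and AT1G10640 were 1.9-fold and 1.76-fold higher, and AT1G05170, of the galactosyltransferase family, 1.7-fold, with gaps of 0.53, 0.13 and 0.11 log2.

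Transport and metabolism were represented by SWEET10, UGT72B3 and AT4G32190. SWEET10, a sugar transporter of the clade that exports sucrose, gave 4.27 and 4.37 log2 on line 10 and 4.89 and 4.57 on line 19, against 3.64, 4, 2.86 and 2.85 in AtNF-YB1 shoots and 3.95, 3 and 2.79 on the wild type arrays. Its lowest CBF4 array was 0.27 log2 above its highest other array, and the 2.34-fold difference rests on dim values. UGT72B3, a UDP-dependent glucosyltransferase, gave 5.75, 5.04, 5.6 and 5.39 on the CBF4 arrays, against 3.6 to 4.33 on the AtNF-YB1 and 3.66 to 4.19 on the wild type arrays, a 2.74-fold difference. AT4G32190, a coiled-coil protein of the chloroplast linked to the start of starch granules, gave 6.95, 6.76, 7.24 and 6.52, against 6.19 to 6.29 on AtNF-YB1 and 5.88 to 6.27 on wild type arrays. It was the member nearest to the threshold, at 0.7 log2.

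The regulatory member with the largest difference was AT1G14580, a zinc finger transcription factor of the INDETERMINATE DOMAIN family. It gave 5.69, 5.57, 5.69 and 5.64 log2 on the CBF4 arrays, against 4.1, 3.84, 4.17 and 4.23 on the AtNF-YB1 and 4.28, 4.47 and 4.14 on the wild type arrays. Its CBF4 arrays differed by an SD of 0.06 and its 2.77-fold difference left a gap of 1.1. The probes of this probe set carry the suffix that Affymetrix gives to sets shared by several transcripts, as 5 members do in all (10.9%, against 7.54% of all plant probe sets), so other transcripts may add to its signal. AT5G10410, an ENTH/ANTH domain protein, gave a 2-fold difference with a gap of 0.18. The F-box protein gene AT5G56380, AT1G51080 and AT1G33230 were 1.64-fold, 1.67-fold and 1.78-fold higher, with gaps of 0.02, 0.04 and 0.48 log2.

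**Figure D2:**
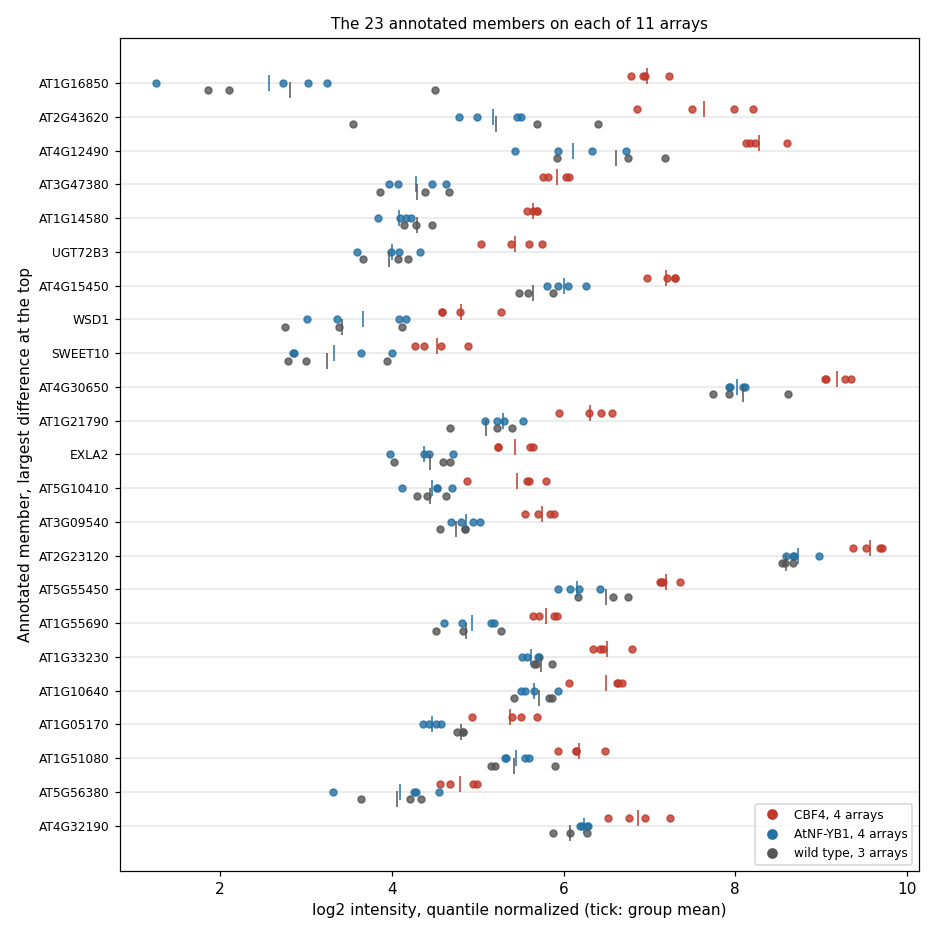
Each row is an annotated member and each point an array, on the log2 scale after quantile normalization, with CBF4 in red, AtNF-YB1 in blue, wild type in grey and a tick at each group mean. AT1G14580 and AT3G47380 show a clear gap between tight groups, whereas AT5G56380 and AT1G51080 nearly touch, and AT1G16850 and AT2G43620 have widely spread wild type arrays.

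The other members without a name covered the whole range of brightness. MRT3702_14502C.2_at, MRT3702_12660C.2_at, MRT3702_11005C.2_at and MRT3702_23939C.2_at were 9.71-fold, 9.56-fold, 9.53-fold and 9.36-fold higher. Of these MRT3702_12660C.2_at gave 9.37, 9.25, 9.89 and 9.4 log2 on the CBF4 arrays, against 6.12 to 6.61 on the AtNF-YB1 and 6.02 to 6.08 on the wild type arrays, so its wild type arrays agreed to within 0.03 (SD, n = 3). MRT3702_14502C.2_at was less even, with 9.02 to 9.54 on the CBF4 arrays, against 5.55 to 5.89 on AtNF-YB1 shoots and 7.45, 5.36 and 6.44 in wild type shoots. MRT3702_18079C.2_at gave the smallest spread of all, 8.51, 8.54, 8.51 and 8.44 on the CBF4 arrays (SD 0.04), against 6.75 to 7.21 on the AtNF-YB1 and 6.8 to 7.1 on the wild type arrays. The remaining 16 members without a name had differences of 0.75 to 2.65 log2, led by MRT3702_20073C.2_at at 2.65 and MRT3702_192C.2_at at 1.87.

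The difference between the 2 CBF4 lines was not used by the rule, since both lines had to be high, and it was tested with limma over the whole table. Of the 46 members 0 were called at an adjusted p below 0.05, where 0.0155% of all plant probe sets were called (0.00516% higher and 0.0103% lower in line 10), and 1 member had an unadjusted p below 0.05 (3.42% of plant probe sets did). All members had an adjusted p of 1. With 2 arrays per line only large differences could pass, so this does not show that the lines act alike. The direction was uneven: 36 of 46 members (78.3%) were lower in line 10 than in line 19, against 50.2% of plant probe sets with a CBF4 mean of at least 4 log2. On 16 members (34.8%) both line 10 arrays lay below both line 19 arrays, and on 2 (4.35%) above them. The shares over all plant probe sets were 10.8% and 9.71%, but 1487 of these probe sets had floor values throughout and could show no order. Shares among the brighter plant probe sets were not counted, so the size of the excess is not fixed. The same limit holds for the shares of arrays without overlap given below. All members were read from the same 4 CBF4 arrays, so they are not independent counts. The median over the members was −0.13 log2, small beside the size of most members, against 0 over all plant probe sets. On values as deposited, where arrays were not brought to a common scale, the count was 22 of 46, and the median over all plant probe sets shifted to 0.15 log2. Relative to the median of the brighter plant probe sets on that scale, 35 members were lower in line 10.

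AT2G43620 had the largest of these differences, at −0.91 ± 0.84 log2 (line 10 minus line 19, SE). MRT3702_810C.2_at and MRT3702_23907C.2_at followed the same order, at −0.78 ± 0.75 and −0.51 ± 0.42, and so did MRT3702_4738C.2_at at −0.58 ± 0.3. Without line 10 replicate 2, AT2G43620 was at −0.59, MRT3702_810C.2_at at −0.51 and MRT3702_4738C.2_at at −0.19, and the last was at −0.98 without line 10 replicate 1. MRT3702_8128C.2_at had the smallest p of the members, at −0.54 ± 0.14 (unadjusted p = 0.00834, limma adjusted p = 1), and was at −0.34 without line 10 replicate 2. It gave 6.28 and 5.89 on line 10 and 6.65 and 6.59 on line 19, against 4.82 to 5.13 on the AtNF-YB1 and 5.04 to 5.16 on the wild type arrays. The opposite order was seen without overlap for MRT3702_20073C.2_at at 0.49 ± 0.52 and AT5G55450 at 0.13 ± 0.19, which were 0.3 and 0.03 without line 10 replicate 1. Without line 10 replicate 2 AT5G55450 was at 0.23. The NOS vector signal on the same arrays, as deposited, was 248 and 154 units in line 10 and 420 and 340 in line 19. The E9 signal overlapped between the lines, at 518 and 541 units in line 10 and 591 and 504 in line 19. With 4 arrays no relation between that signal and the members was tested.

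The CBF4 arrays were also compared by replicate number, across both lines. Both arrays numbered 1 lay above both numbered 2 for 12 members (26.1%, against 18% of plant probe sets) and below them for 10 members (21.7%, against 20.8%). MRT3702_11005C.2_at gave 6.14 and 6.12 log2 on the arrays numbered 1 and 5.06 and 5.24 on those numbered 2, the widest such split. EXLA2 was split the other way, at 5.24 and 5.24 against 5.61 and 5.64. What the numbers share (a growth batch, a day) is not given in the labels.

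AtNF-YB1 against wild type was the other comparison that the rule did not use, as both groups only had to stay below the CBF4 arrays. Of the 46 members 0 were called with limma, where 0.0155% of plant probe sets were (0.0103% higher and 0.00516% lower in the AtNF-YB1 lines), and 2 had an unadjusted p below 0.05 (4.02% of plant probe sets did). The members were divided in direction, 21 higher and 25 lower in the AtNF-YB1 lines (54.3% lower, against 53.8% of plant probe sets). Of 46 members 41 lay within 0.5 log2 of 0, but the share over all plant probe sets was not counted. The rule caps both groups below the CBF4 arrays, which can limit how far apart they lie. The median was −0.03 log2, against 0 over plant probe sets. On values as deposited 41 members were lower, where the median over all plant probe sets was itself −0.17.

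MRT3702_192C.2_at stood apart from the other members here. Its values were 6.65 to 6.98 log2 in CBF4 shoots, 4.68, 4.73, 4.27 and 3.52 in AtNF-YB1 shoots and 5.52, 5.6 and 6.48 in wild type shoots. The AtNF-YB1 arrays lay below all wild type arrays, by −1.57 ± 0.28 log2 (SE, unadjusted p = 0.00107, limma adjusted p = 0.469). Without wild type replicate 3, the highest of the wild type arrays here, MRT3702_192C.2_at was at −1.25 log2, and with the replicate number in the fit at −1.26. Its CBF4 minus AtNF-YB1 difference was 2.54 log2 and its CBF4 minus wild type difference 0.97. AT1G05170 was also below all wild type arrays in the AtNF-YB1 lines, at −0.34 ± 0.17, with 4.36, 4.57, 4.51 and 4.43 on AtNF-YB1 and 4.83, 4.83 and 4.76 on wild type arrays. In the other direction MRT3702_12660C.2_at was 0.3 ± 0.13 higher without overlap. AT4G15450 was 0.37 ± 0.13 log2 higher (unadjusted p = 0.0286, adjusted p = 1) with overlapping arrays. In all 2 of 46 members (4.35%) lay wholly below wild type and 1 (2.17%) wholly above, where 1.86% and 1.93% of plant probe sets did.

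**Figure D3:**
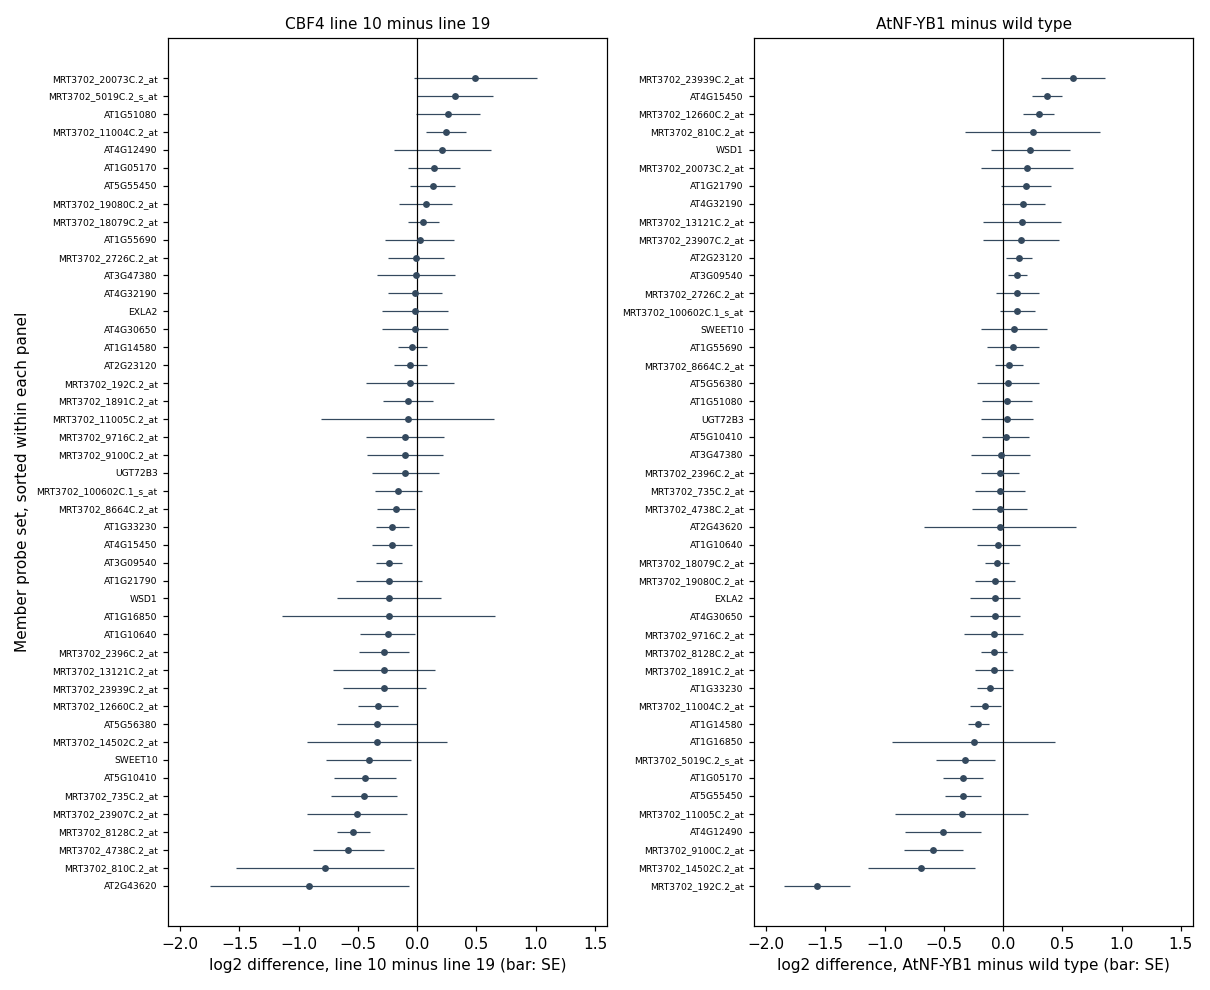
Points are the log2 difference of each member with its standard error, on the left CBF4 line 10 minus line 19 and on the right AtNF-YB1 minus wild type, sorted within each panel. On the left 36 of 46 points lie below 0, though most bars reach it. On the right the points centre near 0 and MRT3702_192C.2_at alone lies beyond −1 log2.

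On the members, the array labelled wild type replicate 3, which carried vector signal, differed from the other wild type arrays in both directions. It lay above both other wild type arrays for 13 members (28.3%, against 30.7% of plant probe sets) and below both for 18 (39.1%, against 27.3%), with a median difference of 0.03 log2 from their mean. The differences were −2.49 for AT2G43620, −1.08 for AT1G16850 and −1.04 for AT4G12490, and 1.05 for WSD1. MRT3702_192C.2_at and AT4G30650 were among those higher on it, at 6.48 and 8.61 log2. The mean over the members was 6.7 to 6.96 log2 in CBF4 shoots, 5.1 to 5.2 in AtNF-YB1 shoots, 5.15 on that wild type array and 5.26 and 5.21 on wild type replicates 1 and 2.

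Of the 22 loci in a list of CBF regulon genes 6 were measured under a name. The other loci could not be looked up, and members without a name may include some of them. The same limit holds for the further lists below. COR15A, COR15B, KIN1, KIN2 and COR47 met the value thresholds and were left out of the members by name. The remaining one, COR27, a cold gene with evening expression, was −0.16 ± 0.36 log2 in the CBF4 lines against wild type (limma adjusted p = 1). Counting all 6, 4 were called higher and 0 lower, where 0.181% and 0.0516% of plant probe sets were, and the count was 2 with the replicate number in the fit and 0 on unscaled values. The median over the list was 3.1 log2. Since 5 of the 6 genes met the CBF4 thresholds on the same arrays, these counts are a description of that choice. Of 20 loci of dehydrins and LEA proteins 10 were measured, 0 called in either direction and 2 with an unadjusted p below 0.05 (6.14% of plant probe sets had one), with a median of 0.1 log2. Among them the abundant dehydrin AT1G54410 was 0.12 ± 0.08, AT2G46140 was −0.36 ± 0.11 and LEA4-5 was 0.07 ± 1.23 with arrays that spread by 1.97 log2 in the CBF4 lines (SD, n = 4). LEA (AT2G21490), LEA18 and AtLEA4-1 were 1 ± 0.66, 0.75 ± 0.37 and 0.44 ± 0.26, all dim (3.4, 1.69 and 1.37 log2 in CBF4 shoots). Of the 10 measured, 3 were lower in CBF4 than in wild type shoots. COR47 counts on this list too, at 1.37 ± 0.19 (limma adjusted p = 0.0815), and AT2G23120 is not on it. The 2 genes with an unadjusted p below 0.05 were COR47, which met the CBF4 thresholds on the same arrays, and AT2G46140, which was lower. The starch breakdown genes PWD and DPE1 were 0.26 ± 0.3 and 0.04 ± 0.1 (2 of 11 loci measured, 0 called), and the proline gene AT5G38710 was −0.34 ± 0.48. The lists of abscisic acid response, galactinol and raffinose, CBF-related factors, gibberellin brake, lipid desaturation and flowering time genes had 0 loci measured under a name.

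In 2 cases a member had a neighbour in the genome that met the same thresholds. SWEET10 lies next to SWEET13, which was 2.05 ± 0.25 log2 higher in the CBF4 lines than in wild type, and AT1G51080 lies next to AT1G51090, at 2.76 ± 0.34. Both neighbours are among the genes left out by name. Over the 23 annotated members, 22 further probe sets of directly adjacent genes were measured under a name. Of these 0 were called in CBF4 against wild type, where 0.232% of plant probe sets were, 3 of 22 had an unadjusted p below 0.05 (6.14% of plant probe sets did), and their median was 0.06 log2. AT4G30660, the neighbour of AT4G30650 and a member of the same protein family, was 0.03 ± 0.23, and AT2G23110, the LEA-type neighbour of AT2G23120, was near the floor in both groups (1.37 and 1.44 log2). The highest neighbour differences were AT5G55460, beside AT5G55450, at 1.47 ± 0.66 and AT4G15460, beside AT4G15450, at 1.28 ± 0.43, both dim. The genes beside AT1G16850 were 0.19 ± 0.13 and 0.25 ± 0.27.

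Probe set numbers on this array run in steps with gene order: of 4611 pairs of annotated probe sets with consecutive numbers, 4050 (87.8%) were adjacent genes. Among the members without a name MRT3702_11004C.2_at and MRT3702_11005C.2_at carry consecutive numbers, with differences of 1.77 and 3.25 log2. MRT3702_1891C.2_at, at 9.3 to 9.53 on the CBF4 arrays against 7.82 to 8.11 on AtNF-YB1 and 7.7 to 8.39 on wild type arrays, carries the number beside that of the dehydrin gene COR47. Their differences were similar, 1.47 and 1.4 log2, and whether these probe sets share signal was not tested.

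Relatives of the members by gene symbol were compared between the CBF4 lines and wild type, where 0.232% of all plant probe sets were called and 6.14% had an unadjusted p below 0.05. Of 10 SWEET probe sets with a name SWEET10 and SWEET13 were high on all CBF4 arrays, while the other 8 gave 0 calls, 0 unadjusted p below 0.05 and a median of −0.1 log2 against wild type. SWEET11, the brightest at 8.85 log2 in CBF4 and 9.01 in wild type shoots, was −0.15 ± 0.07, and SWEET14 was −0.53 ± 0.38. EXLA1 and EXLA3, measured beside EXLA2, were −0.35 ± 0.45 and −0.39 ± 0.43. Of the other 39 UGT probe sets 0 were called, and 5 had an unadjusted p below 0.05, all of them lower in the CBF4 lines. A positive difference was seen for 12, but the share over all plant probe sets was not counted and some UGT probe sets lay at the floor. UGT72E1 and UGT72E2, of the same family as UGT72B3 but another subfamily, were −0.29 ± 0.18 and −1.36 ± 0.29 (limma adjusted p = 0.276). Only AT1G55690 had a further probe set of its own. That probe set, MRT3702_75614C.1_s_at, gave 4.13, 0.93, 3.61 and 0.93 on the CBF4 arrays, against 0.93 to 2.24 on AtNF-YB1 and 0.93 to 1.92 on wild type arrays. It was at the floor on 2 of the 4 CBF4 arrays and did not separate the groups.

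**Figure D4:**
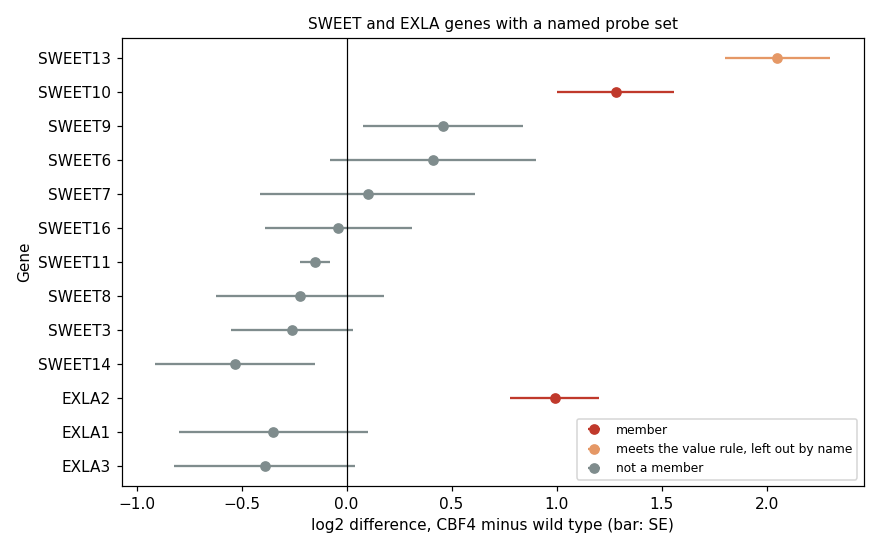
Points are the log2 difference of the CBF4 lines from wild type for each SWEET and EXLA gene with a named probe set, with its standard error. SWEET10 and EXLA2, the members, lie at 1.28 and 0.99, SWEET13 at 2.05, and the other 10 genes between −0.53 and 0.46.

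Membership near the thresholds was a matter of small differences. Just inside lay AT1G51080, AT5G56380 and AT4G32190 at 0.74, 0.71 and 0.7 log2. Just outside lay AT3G57020 and AT3G54400, which fell short of 0.7 in the further decimals, and MRT3702_23458C.2_at at 0.67. AT3G57020 gave 7.43 to 7.78 log2 on the CBF4 arrays, against 6.74 to 7.4 on the AtNF-YB1 and 6.25 to 7.17 on the wild type arrays. A further 34 probe sets without overlap and with a CBF4 mean of at least 4 had a difference of 0.5 or more but under 0.7. By the same thresholds 56 probe sets were lower on all CBF4 arrays, and 8 were higher and 7 lower on all AtNF-YB1 arrays than on all others. The count of members was 70 without CBF4 line 10 replicate 2, of which 44 were the members given here, and between 46 and 56 without any other array.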

How the data were processed

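The 11 arrays each read 1 pool of shoots, and titles gave each array's line and replicate. What the authors deposited is 1 linear intensity per probe set, at times below 0; how the authors summarized, background corrected or scaled them is not given in the sources used here. Array medians of the deposited intensity ran from 9.24 to 22.7, so no common scale was visible. Of 19658 rows 284 control probe sets were left out, and 19374 (19371 plant, 3 vector) were quantile normalized, raised to the 20th percentile of all values (1.9 intensity units, 0.93 log2) and taken to log2. Names were read from GEO's platform annotation, which covers 11598 plant probe sets, of which 11547 matched the RefSeq table of TAIR10.1, used for names and gene order only. No sequences were available for the probe sets, so none are shown.

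Differences were tested with limma (lmFit, eBayes, two-sided) in 1 fit of 5 line groups with 6 residual degrees of freedom, with Benjamini-Hochberg adjustment over 19374 probe sets and a threshold of 0.05. Errors of differences are standard errors of that fit. Replicates are biological per the labels, with no batch named; p-values reflect variation among seedling pools, and the number of arrays limits the precision. The procedure was tested on simulated data with independent noise, no batch effect and changes in the brighter probe sets only. That setting differs from these arrays, so it does not measure the power for the members. The members and lists were chosen with earlier results of these data known. All 23 annotated members are named, with the members without a name that have the largest differences, those furthest apart in the tests, and the probe sets at the threshold; list genes are given by their brightest probe set. The role groups were formed after the values were seen. Alternatives covered scaling, floor, thresholds, variance prior, dim probe sets, the replicate number and each array left out. R 4.3.3, limma 3.58.1, Python 3.11.15 and matplotlib 3.10.9 were used.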

Additional observations from a re-analysis of the deposited data

Results flagged for a closer look

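In each member the 4 CBF4 arrays and the 4 AtNF-YB1 arrays were searched for an array far from the other 3. Of 92 such sets 3 held one, where chance gives about 1 in 20. AT1G10640 gave 6.06 log2 on CBF4 line 10 replicate 1, below 6.62 to 6.68 on the other CBF4 arrays. MRT3702_9100C.2_at gave 7.14 on AtNF-YB1 line 6 replicate 2, above 6.31 to 6.43 on the others, and MRT3702_735C.2_at gave 6.79 on AtNF-YB1 line 3 replicate 2, below 7.63 to 7.76. Vector probe sets, which no comparison uses, gave 1164 intensity units for E9 and 52.3 for NOS on the array labelled wild type replicate 3, above the other wild type arrays.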

How the results depend on the processing

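The count of members was 40 with arrays centred on their medians (39 shared), 35 on values as deposited (33 shared) and 46 with a floor at the 15th or 40th percentile. It was 80 with a mean difference of at least 0.5 and 29 with at least 1, 61 and 41 with a CBF4 mean of at least 3 and 5, and 46 to 70 with an array left out. The planned floor at the 10th percentile was not run, because that value (−1.14) has no log; the 15th was chosen after seeing the data. In both tested comparisons 0 members were called under each scaling, floor, variance prior, dim probe set and replicate block alternative run, and 0 to 0 with an array left out; the membership thresholds were not varied there. The CBF regulon count of 4 was 0 on values as deposited and 2 with the replicate block (the cause was not tested), 5 with dim probe sets left out, and 4 to 4 with an array left out. The count of 36 members lower in line 10, a measure added after seeing the data, was 22 on values as deposited and 29 to 36 with an array left out. Deviations of same-numbered arrays of different groups correlated with mixed sign (r from −0.469 to 0.414, 0.341 between the CBF4 lines), so the numbers were not taken as pairs. For the 10 members named in the tests, 178 alternative values kept direction and side of the threshold, though on values as deposited MRT3702_12660C.2_at was 0.1 and AT1G05170 −0.58 (AtNF-YB1 minus wild type), and AT5G55450 0.33, MRT3702_23907C.2_at −0.3 and MRT3702_8128C.2_at −0.34 (line 10 minus line 19). The number of arrays, and 2 per line, limit what the tests can show.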
